A study of Homo sapiens with 4 samples.

Results

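The regions described here are stretches of open chromatin that lie at an outer end of 2 or more protein-coding genes at once. Peaks of the 4 libraries were merged where they overlapped by at least 1 bp, and a merged region was kept as a consensus region if every library had a peak in it. A consensus region within 1 kb, on either side, of the outer ends of at least 2 protein-coding genes was called shared. One at the end of a single gene was called single-end. Of 50771 consensus regions on chromosomes 1 to 22 and X, 2377 (4.68%) were shared, 10712 were single-end and 37682 lay at no such end. Thus 18.2% of the 13089 regions at gene ends were shared.

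The chromatin came from Panc1, an established human line of pancreatic ductal adenocarcinoma, taken from the pancreas of transplanted mice. Mice 11 and 35 received Inflachromene, a compound that binds HMGB1 and HMGB2, abundant DNA-bending proteins, and mice 12 and 31 received Carrier. Each mouse gave 1 library of single-cell ATAC-seq, in which a transposase cuts open DNA and the cuts are counted per region and cell barcode. Dose, length of treatment, and the strain and age of the mice are not stated in the labels. The transplanted cells derive from 1 cell line, and whether mouse host cells were among the barcodes was not tested. The libraries are called Inflachromene 11, Inflachromene 35, Carrier 12 and Carrier 31.

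Neighbouring genes on opposite strands often start from one stretch of DNA between them, which is called a bidirectional promoter when the starts face away from each other. Such promoters are usually rich in CpG dinucleotides, seldom hold a TATA box and serve many genes of DNA repair, mitochondria and protein synthesis. Elsewhere a shared region joins the start of one gene to the end of its neighbour, or the ends of convergent genes. Transposase cuts report that the DNA was open, and do not say which of the genes was transcribed.

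The sequences between the start sites of 7 pairs show what such a stretch looks like; 5 pairs are textbook examples of shared promoters and the last 2 are from regions whose Inflachromene and Carrier libraries did not overlap. Each runs from the start of the gene on the minus strand to the start of the gene on the plus strand, is read 5′ to 3′ on the plus strand, and comes from RefSeq (GRCh38.p14). Capitals mark matches, on either strand, to the letters searched: CCGGAAG (ETS family), CCAAT (NF-Y), GGGCGG (SP and KLF family), CACGTG (MYC, MAX and USF) and, for the core promoter box named after it, TATAAA. Positions are chr19:38930763-38930944 for SARS2 and MRPS12, chr5:140691370-140691455 for HARS1 and HARS2, chr11:236931-236976 for SIRT3 and PSMD13, chr16:2047834-2047985 for NTHL1 and TSC2, chr17:78187204-78187362 for TK1 and AFMID, chr2:70087375-70087477 for ASPRV1 and PCBP1, and chr11:95789782-95790014 for FAM76B and CEP57.
SARS2 and MRPS12: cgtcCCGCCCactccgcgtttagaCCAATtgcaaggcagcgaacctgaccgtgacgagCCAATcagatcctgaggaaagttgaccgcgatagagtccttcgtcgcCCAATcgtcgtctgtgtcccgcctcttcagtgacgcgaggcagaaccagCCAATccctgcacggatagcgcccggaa
HARS1 and HARS2: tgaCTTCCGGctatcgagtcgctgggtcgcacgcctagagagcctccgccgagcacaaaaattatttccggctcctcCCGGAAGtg
SIRT3 and PSMD13: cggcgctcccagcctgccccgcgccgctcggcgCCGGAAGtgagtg
NTHL1 and TSC2: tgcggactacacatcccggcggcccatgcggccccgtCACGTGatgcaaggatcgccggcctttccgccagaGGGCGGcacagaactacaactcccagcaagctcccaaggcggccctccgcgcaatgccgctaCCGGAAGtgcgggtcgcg
TK1 and AFMID: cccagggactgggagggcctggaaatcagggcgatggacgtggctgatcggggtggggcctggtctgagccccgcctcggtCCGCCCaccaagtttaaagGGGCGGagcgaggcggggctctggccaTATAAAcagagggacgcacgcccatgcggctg
ASPRV1 and PCBP1: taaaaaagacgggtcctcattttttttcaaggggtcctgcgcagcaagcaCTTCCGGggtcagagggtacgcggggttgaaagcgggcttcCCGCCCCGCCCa
FAM76B and CEP57: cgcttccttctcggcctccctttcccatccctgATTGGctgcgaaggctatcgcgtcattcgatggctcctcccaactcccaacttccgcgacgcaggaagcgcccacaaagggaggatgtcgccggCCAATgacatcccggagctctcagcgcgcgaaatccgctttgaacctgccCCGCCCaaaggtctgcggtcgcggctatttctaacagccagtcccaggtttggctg

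The stretches were 46 to 233 bases long, and each lay whole inside its shared region. SARS2 and MRPS12, a mitochondrial seryl-tRNA synthetase and a mitochondrial ribosomal protein, had 4 copies of the NF-Y letters. HARS1 and HARS2, the cytosolic and the mitochondrial histidyl-tRNA synthetase, had 2 matches to the ETS letters, 1 on each strand. Between TK1, the thymidine kinase of dividing cells, and AFMID, an enzyme of tryptophan breakdown, stood the single TATA box of the set. A match is a description of the letters and not evidence of a bound factor.

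Sequencing depth in consensus regions was 24231073 counts in Inflachromene 11 and 33208057 in Inflachromene 35, against 29288622 in Carrier 12 and 26307372 in Carrier 31. The lowest count of any shared region was 42 to 55 per library, and the median region had 1097 to 1366. Some barcodes were listed in more than 1 library: Inflachromene 11 and Carrier 12 had 1209 in common, Carrier 12 and Carrier 31 had 357, Inflachromene 11 and Carrier 31 had 155, and the pairs with Inflachromene 35 had 25 to 29. Most of those held by Inflachromene 11 and Carrier 12 were deep (at least 2000 counts in consensus regions) in Carrier 12 and not in Inflachromene 11, where 1125 and 16 were deep, and 10 were deep in both. Barcodes listed elsewhere too carried 3.26% of the counts of Inflachromene 11 and 1.33% of those of Inflachromene 35, but 58.4% of those of Carrier 12 and 61.9% of those of Carrier 31, so the densities, fold changes and shares of barcodes below were also computed without them. Of 7 markers of Panc1, 6 had a consensus region at a gene end (KRT8, KRT18, KRT19, EPCAM, CDH1 and VIM), whereas none of the 4 endothelial, 3 acinar or 3 endocrine markers did. Regions were also present at 4 of 6 fibroblast markers, 2 of 4 myeloid markers (not PTPRC) and 1 of 3 T and NK cell markers.

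Shared regions mostly joined a pair of genes. There were 2262 with 2 genes, 110 with 3 and 4 with 4. A single region held the ends of 23 genes: it lies on chromosome 5 from 141513590 to 141514491, where the protocadherin gamma genes, which encode neuronal adhesion molecules from one common 3′ end, meet DIAPH1, an actin nucleator. Of 12807 protein-coding genes with a consensus region at an end, 4236 (33.1%) had a shared one. In 89 shared regions a gene was a readthrough, annotated as the fusion of 2 neighbours, so that its end repeats that of another gene.

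The strand was known for 3539 of the 4236 genes, from the RefSeq promoter table. In 1076 regions (45.3%) the 2 genes started on opposite strands, which is called start to start here. The start of one gene met the end of another in 435 regions. The ends of both genes met in 91, and in 80 both genes started on the same strand. Regions with 3 or more genes numbered 115, and in 580 the strand of at least 1 gene was not in the table.

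In start-to-start regions the starts lay a median of 227 bp apart (quartiles 119 and 443.5 bp, range 1 to 1901 bp), and 63.2% of them were under 300 bp apart. The gene bodies overlapped in 287 (26.7%) of these regions. A gene start within 1 kb of a start on the other strand had a consensus region within 1 kb for 2008 of 2162 genes (92.9%). This compared with 710 of 975 genes (72.8%) whose start was near another gene end only, and with 7282 of 12676 genes (57.4%) with no other gene end within 1 kb. A region at the neighbour's own end can count for both genes, so higher shares near another gene end are partly built in. These shares describe genes and carry no test, since genes of 1 pair are measured together.

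Shared regions were more accessible than single-end regions in every library. Levels are given as count density, which is CPM (counts scaled to a common total over consensus regions, with TMM factors) per kb of region. The median shared region had 49.7 CPM per kb in Inflachromene 11 and 44.2 in Inflachromene 35, against 43.2 in Carrier 12 and 47.3 in Carrier 31. Single-end regions had 34.9 and 30.9 CPM per kb in these Inflachromene libraries and 30.4 and 33.1 in these Carrier libraries. The ratio of shared to single-end regions was 1.43-fold on average, and lay between 1.42 and 1.43 in all 4 libraries (log2 ratio 0.51 ± 0.0044, SD, n = 4). A two-sided exact sign-flip permutation test over the 4 libraries gave p = 0.13, the smallest that 4 libraries allow, so the difference cannot pass 0.05 in this design. With barcodes listed in 1 library only, the log2 ratio was 0.51 as well. Widths were alike, with a median of 928 bp in shared and 930 bp in single-end regions.

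Levels differed further by the arrangement of the genes. Start-to-start regions had a median of 60.1 CPM per kb in Inflachromene 11 and 53.1 in Inflachromene 35, against 51.6 in Carrier 12 and 57.4 in Carrier 31. Single-end regions at a gene's start had 41.0 and 36.3 CPM per kb in Inflachromene libraries and 35.3 and 38.9 in Carrier libraries. That is 1.47-fold more in start-to-start regions (log2 ratio 0.55 ± 0.0066, SD, n = 4; exact sign-flip permutation p = 0.13). A start that met only the end of another gene had about the density of a single start, at 0.982-fold and 0.964 to 0.992 in single libraries (log2 ratio -0.03 ± 0.018, SD, n = 4; exact p = 0.13).

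End-to-end regions were the least accessible of the shared ones. Their median was 13.8 CPM per kb in Inflachromene 11 and 13.2 in Inflachromene 35, against 13.6 in Carrier 12 and 15.0 in Carrier 31. Single-end regions at the 3′ end of a gene had 12.3 and 12.2 CPM per kb in Inflachromene libraries and 12.9 and 12.4 in Carrier libraries. The ratio was 1.12-fold, with 1.06 to 1.21 in single libraries (log2 ratio 0.16 ± 0.087, SD, n = 4; exact p = 0.13). With widths limited to 800 to 1100 bp the end-to-end log2 ratio was 0.10 (exact sign-flip permutation p = 0.25). It then no longer held in every library, with 1.08-fold in Inflachromene 11 and 0.986-fold in Inflachromene 35, against 1.04-fold in Carrier 12 and 1.17-fold in Carrier 31.

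**Figure D1:**
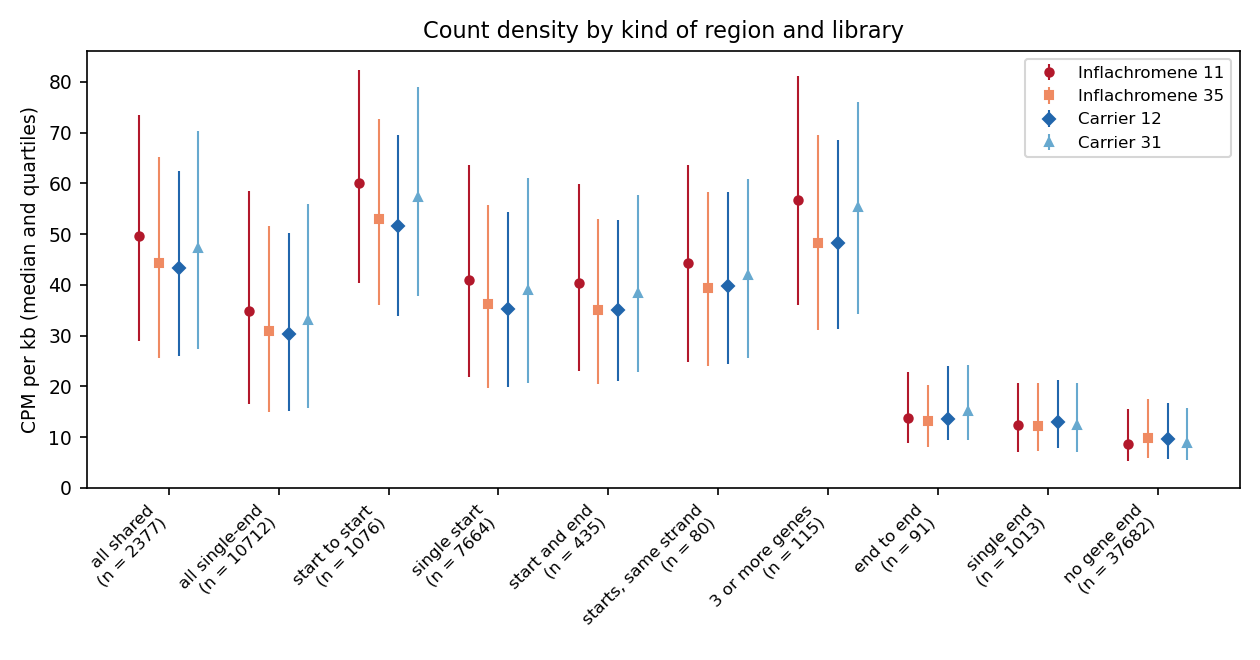
Count density (CPM per kb, vertical axis) of each kind of region in Inflachromene 11, Inflachromene 35, Carrier 12 and Carrier 31; points are medians over regions and bars run between the quartiles. Start-to-start regions had the highest medians, at 51.6 to 60.1 CPM per kb, and end-to-end regions lay at 13.2 to 15.0, close to single 3′ ends.

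A start may also lie next to a long non-coding RNA gene, which the definition of shared regions ignores. Of 7664 single-start regions, 1885 lay within 1 kb of the end of such a gene. They had 47.1 CPM per kb in Inflachromene 11 and 41.0 in Inflachromene 35, against 40.0 in Carrier 12 and 44.5 in Carrier 31. The 5779 without one had 39.0 and 34.3 CPM per kb in Inflachromene libraries and 33.8 and 36.9 in Carrier libraries, a ratio of 1.20-fold. Start-to-start regions of protein-coding pairs were 1.29-fold above the single starts next to a long non-coding RNA gene, in all 4 libraries.

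Accessibility also differed with the distance between the starts. Pairs with overlapping gene bodies (287 of 1076) were not separated, and for them the distance is not a gap between genes. Pairs under 100 bp apart (202 regions) had a median of 45.4 CPM per kb in Inflachromene 11 and 40.5 in Inflachromene 35, against 39.0 in Carrier 12 and 43.2 in Carrier 31. Pairs 300 to 500 bp apart (169 regions) had 75.4 and 66.8 CPM per kb in Inflachromene libraries and 62.4 and 71.8 in Carrier libraries. For pairs at least 1000 bp apart (71 regions) the values were 53.7 and 48.3 in Inflachromene libraries and 46.5 and 55.1 in Carrier libraries. All 4 libraries had the highest median in the class of 300 to 500 bp.

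**Figure D2:**
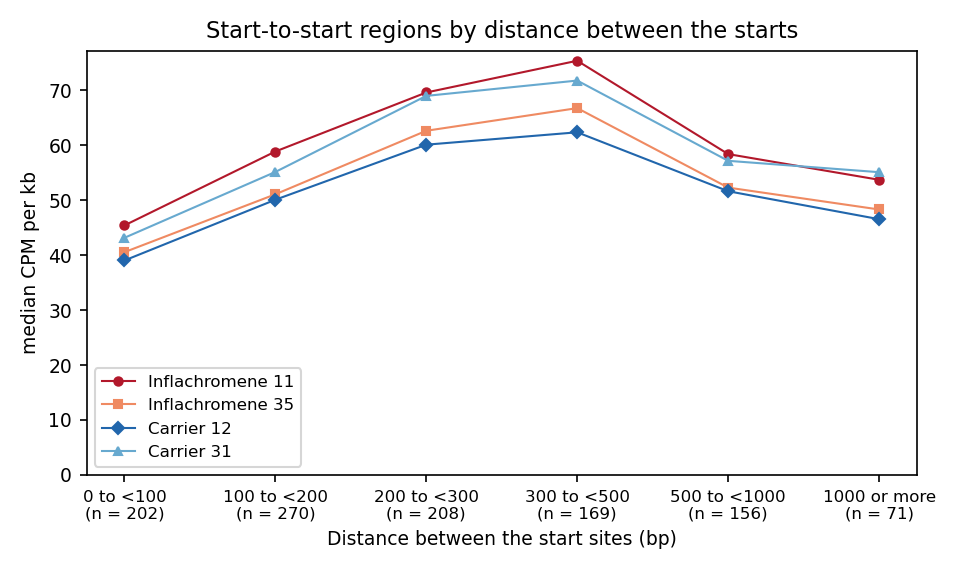
Median count density (CPM per kb, vertical axis) of start-to-start regions in 6 classes of distance between the start sites (bp, horizontal axis), 1 line per library. In each library the median was lowest for starts under 100 bp apart, at 39.0 to 45.4 CPM per kb, and highest at 300 to 500 bp, at 62.4 to 75.4. Pairs with overlapping gene bodies are included.

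In single barcodes the order was the same. The median shared region had a count in 29.2% of the deep barcodes of Inflachromene 11 and 28.3% of those of Inflachromene 35, against 25.4% in Carrier 12 and 41.8% in Carrier 31. Single-end regions were found in 21.97% and 20.93% of deep barcodes of Inflachromene libraries and in 18.93% and 32.97% of those of Carrier libraries. The difference was 7.49 percentage points ± 1.00 (SD, n = 4; exact sign-flip permutation p = 0.13). Barcodes of Carrier 31 were deeper than those of the other libraries, so these shares cannot be compared between libraries.

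Promoters of start-to-start genes differed in their letters from those of other genes. The table gives 300 bases around each start, from 250 before to 50 after. It holds 15813 genes, of which 1982 are start to start, 7033 have a single start and 5813 have no consensus region at their start. Windows of a close pair overlap and so share bases, and no test was run.

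The letters CCGGAAG, which read on the other strand as CTTCCGG, of the ETS family stood in 26.9% of start-to-start promoters, 17.5% of single-start promoters and 14.1% of all promoters. AAGATGGCG (or CGCCATCTT) of YY1 stood in 5.55% of start-to-start promoters, 3.60% of single-start promoters and 2.69% of all promoters. GCGCATGCG (or CGCATGCGC) of NRF1 stood in 5.05%, 3.57% and 2.77% in the same order. NRF1 is a known regulator of nuclear genes for mitochondria, and YY1 a factor often found just downstream of start sites. All 3 were commonest in the start-to-start promoters. Promoters whose start met the end of another gene (408) came close for ETS, at 24.5%, and stood at 3.19% for both YY1 and NRF1. Promoters without a region held them in 4.03% (ETS), 0.378% (YY1) and 0.637% (NRF1).

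The letters of SP and KLF factors, the TATA box and AP-1 had lower shares in start-to-start than in single-start promoters. GGGCGG (or CCGCCC) of the SP and KLF family stood in 70.9% of start-to-start, 72.1% of single-start and 58.3% of all promoters, and in 35.2% of promoters without a region. TATAAA (or TTTATA) stood in 4.19% of start-to-start, 5.62% of single-start and 9.75% of all promoters, and in 17.3% of promoters without a region. TGANTCA, the palindrome of AP-1, stood in 3.38%, 4.28% and 5.70% of start-to-start, single-start and all promoters, and in 8.38% of those without a region. The median ratio of observed to expected CpG was 0.87, 0.84 and 0.76 in the same order, and 0.34 in promoters without a region.

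CCAAT (or ATTGG) of NF-Y stood in 40.5% of start-to-start, 36.5% of single-start and 36.4% of all promoters. TGACGTCA of CREB and ATF stood in 3.13%, 3.36% and 2.56%, and CACGTG of MYC, MAX and USF in 10.7%, 9.85% and 8.82%, in the same order. In promoters without a region the shares were 34.7% for NF-Y, 1.20% for CREB and ATF, and 6.19% for MYC, MAX and USF. Start-to-start regions with an NF-Y match in a promoter window (566 regions) had a median of 66.1 CPM per kb in Inflachromene 11 and 58.2 in Inflachromene 35, against 55.9 in Carrier 12 and 61.9 in Carrier 31. The 510 without one had 54.9 and 48.1 CPM per kb in Inflachromene libraries and 46.4 and 52.1 in Carrier libraries, lower in every library. Regions with matches of YY1, NRF1, SP and KLF, TATA, or CREB and ATF also had higher medians in every library. For TATA (70 regions) the difference was slight, at 60.6 with and 60.0 without in Inflachromene 11 and 51.8 with and 51.5 without in Carrier 12. Regions with ETS, AP-1, or MYC, MAX and USF matches had lower medians, for ETS 58.9 with and 61.0 without in Inflachromene 11. Distance between the starts was not held equal, and no test was run.

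Several gene classes were found at shared regions more often than the 33.1% of all open genes. Among histone genes with a region, 41 of 66 (62.1%) had a shared one, as did 20 of 33 genes of the RNA polymerases (60.6%) and 40 of 74 genes of the mitochondrial ribosome (54.1%). The respiratory chain stood at 51.7% and DNA repair genes at 44.2%. Zinc finger genes stood at 21.2% (86 of 406), carrier proteins of the SLC families at 27.8% and collagens at 16.7% (3 of 18). Olfactory receptor genes had 1 of 12, OR2B11, at an end-to-end region with NLRP3, an inflammasome sensor, which had a mean of 8.98 CPM per kb (0.194-fold of the median shared region). The shares rest on where genes lie and on the presence of peaks, and were not tested.

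Levels within the classes lay on both sides of the median of shared regions. The region of H2BC11 and H2AC11, a histone H2B and H2A pair, had 106 and 95.8 CPM per kb in Inflachromene libraries and 91.7 and 107 in Carrier libraries. PPP1R10, a regulatory subunit of protein phosphatase 1, and MRPS18B of the mitochondrial ribosome had 144 and 136 CPM per kb in Inflachromene libraries and 119 and 145 in Carrier libraries. At POLR2I, a subunit of RNA polymerase II, with TBCB, a tubulin folding cofactor, and OVOL3, the values were 158 and 149 in Inflachromene libraries and 133 and 157 in Carrier libraries. KRT8 and KRT18, the keratin pair that marks simple epithelia, met in a region with a mean of only 20.6 CPM per kb, with 18.0 and 21.1 CPM over the whole region in Inflachromene libraries and 17.0 and 18.1 in Carrier libraries. The groups overlapped in all 4 regions.

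Most pairs on a list of shared promoters, drawn up from general knowledge, were found here. Of 31 listed pairs, 25 had a shared region, in 30 regions, of which 20 were start to start by strand. A further 5 pairs were open but not in a shared region (PPAT and PAICS, LRRC49 and THAP10, ACAT2 and TCP1, ITGB3BP and EFCAB7, UNG and ALKBH2). TCP1 was start to start with MRPL18 instead, 210 bp apart, so its pair with ACAT2 was listed wrongly as one of shared starts. COL4A1 and COL4A2, collagen genes of basement membranes, had no consensus region. Of the 30 regions, 23 lay above the median density of shared regions.

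Pairs of DNA repair were among the better known ones. NPAT, a regulator of histone transcription, and ATM, the kinase that signals DNA breaks, had 152 CPM per kb in Inflachromene 11 and 124 in Inflachromene 35, against 115 in Carrier 12 and 132 in Carrier 31. BRCA2, which acts in repair by homologous recombination, and ZAR1L had only 28.3 and 23.8 CPM per kb in Inflachromene libraries and 27.7 and 26.4 in Carrier libraries. The groups overlapped in both, and the levels lay both above and below the shared median.

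Pairs of protein folding and translation were also open. HSPD1 and HSPE1, the mitochondrial chaperonin and its lid, had 139 CPM per kb in Inflachromene 11 and 109 in Inflachromene 35, against 102 in Carrier 12 and 125 in Carrier 31. HARS1 and HARS2 had 72.3 and 59.8 in Inflachromene libraries and 60.8 and 65.1 in Carrier libraries. SIRT3, a mitochondrial deacetylase, and PSMD13, a proteasome subunit, had 87.0 and 75.6 in Inflachromene libraries and 61.3 and 83.7 in Carrier libraries. The groups overlapped in all 3. Over the 30 regions the log2 fold change had a median of 0.06 and ran from -0.23 to 0.21, with none called by edgeR and none at an unadjusted p under 0.05.

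The most accessible shared regions lay together on chromosome 19. The 5 with the highest count density of all 2377 fell within a stretch of 1.98 Mb, from 38506774 to 40488599, whose limits were chosen after the values were seen. SAMD4B, PAF1 and MED29 share a region with 1013 CPM per kb in Inflachromene 11 and 926 in Inflachromene 35, against 835 in Carrier 12 and 904 in Carrier 31. PAF1 is the core of a complex that travels with elongating RNA polymerase II, and MED29 a Mediator subunit. DYRK1B, a kinase, and FBL, the nucleolar methyltransferase fibrillarin, share one with 977 and 750 CPM per kb in Inflachromene libraries and 804 and 888 in Carrier libraries. These were 19.9-fold and 18.5-fold above the median shared region.

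The other 3 had lower levels that still topped the list. SARS2 and MRPS12 had 338 CPM per kb in Inflachromene 11 and 303 in Inflachromene 35, against 267 in Carrier 12 and 298 in Carrier 31, so that the Inflachromene libraries lay above the Carrier ones by a margin smaller than the spread within each group (log2 fold change 0.19, standard error 0.18, unadjusted p = 0.316, adjusted p = 1.00, edgeR). SIRT2, a tubulin deacetylase, and NFKBIB, an inhibitor of NF-kB, averaged 296 CPM per kb over the 4 libraries. MAP4K1, a kinase of blood cells, and EIF3K, a translation initiation factor, averaged 249. A further 2 shared regions of the stretch, C19orf47 with PLD3 and BLVRB with SPTBN4, were at 45.6 to 53.6 and 50.4 to 61.0 CPM per kb.

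The high levels were not limited to shared regions. All 161 consensus regions of the stretch had a median 4.82-fold above regions elsewhere in Inflachromene 11 and 4.09-fold in Inflachromene 35, against 4.47-fold in Carrier 12 and 4.66-fold in Carrier 31. The 96 regions there with no gene end were 4.30-fold and 3.75-fold above others of their kind in Inflachromene libraries and 4.07-fold and 4.20-fold in Carrier libraries. Amplification of this part of chromosome 19, with PAF1, is known in Panc1 as background. DNA copy number was not analysed here, and its part in these levels was not tested. Without the stretch the log2 ratio of shared to single-end regions was 0.51, as with it.

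**Figure D3:**
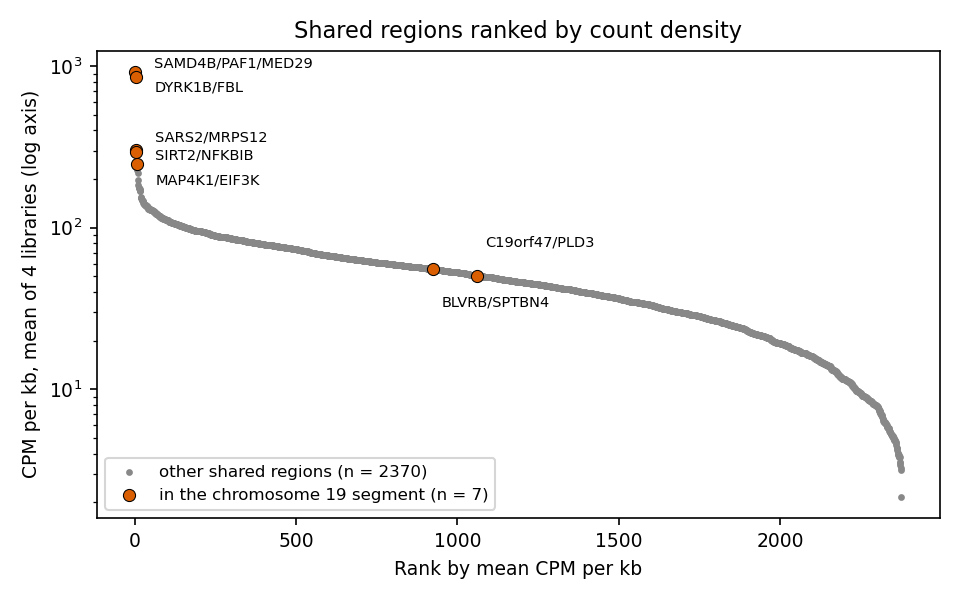
All 2377 shared regions ranked by count density (CPM per kb, mean of 4 libraries, log axis). The 7 regions in the chromosome 19 stretch are marked: 5 hold ranks 1 to 5, at 249 to 920 CPM per kb, and 2 lie in the body of the curve.

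Outside that stretch the highest start-to-start regions served varied genes. TXNL4A, a component of the spliceosome, and RBFA, a factor of mitochondrial ribosome assembly, had 251 CPM per kb in Inflachromene 11 and 226 in Inflachromene 35, against 227 in Carrier 12 and 252 in Carrier 31. INTS13 of the Integrator complex and FGFR1OP2 had 217 and 222 in Inflachromene libraries and 231 and 244 in Carrier libraries. INTS13 and FGFR1OP2 thus lay lower in both Inflachromene libraries, by a log2 fold change of -0.12 (standard error 0.16, unadjusted p = 0.492, adjusted p = 1.00, edgeR). The lowest shared region, at the histone genes H2BC18 and H3C13, had 2.95 and 1.60 CPM per kb in Inflachromene libraries and 1.97 and 2.13 in Carrier libraries. The widest, of NUP62CL and DNAAF6, measured 2502 bp and was also among the 5 lowest.

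The comparison of Inflachromene with Carrier asked whether the compound changed accessibility. edgeR's quasi-likelihood test, adjusted over all 50771 consensus regions at 0.05, called no shared region, and 0 (0%) of all regions. DESeq2 called 28 of 42896 regions (0.0653%) and no shared one. At an unadjusted p under 0.05 edgeR had 22 shared regions (0.926%), against 2.04% of single-end regions and a background of 4.48%. Of these 22, 16 were higher and 6 lower in Inflachromene libraries. Over all consensus regions 1545 were higher (3.04%) and 729 lower (1.44%), so the higher direction was also the commoner one in the background. The p-values measure the spread between mice that carried 1 cell line, with 2 per group.

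The fold changes were small. The median log2 fold change of shared regions was 0.04 (quartiles -0.03 and 0.11), beside 0.03 in single-end regions and 0.01 over all consensus regions. It ran from -0.05 to 0.12 when single libraries were left out, so its direction depended on the library. With barcodes listed in 1 library only, the median was 0.03 and again no shared region was called. The 95% intervals fell within -1 and 1 on the log2 scale for 98.7% of shared regions, and within -0.5 and 0.5 for 64.5%. Changes larger than these bounds were therefore outside the interval for that share of regions. The shared regions took 12.04% of the consensus counts of Inflachromene 11 and 10.96% of those of Inflachromene 35, against 10.98% in Carrier 12 and 11.80% in Carrier 31. The groups overlapped, with a difference of 0.111 percentage points and an exact permutation p of 1.00, where 2 against 2 libraries cannot give less than 0.33.

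**Figure D4:**
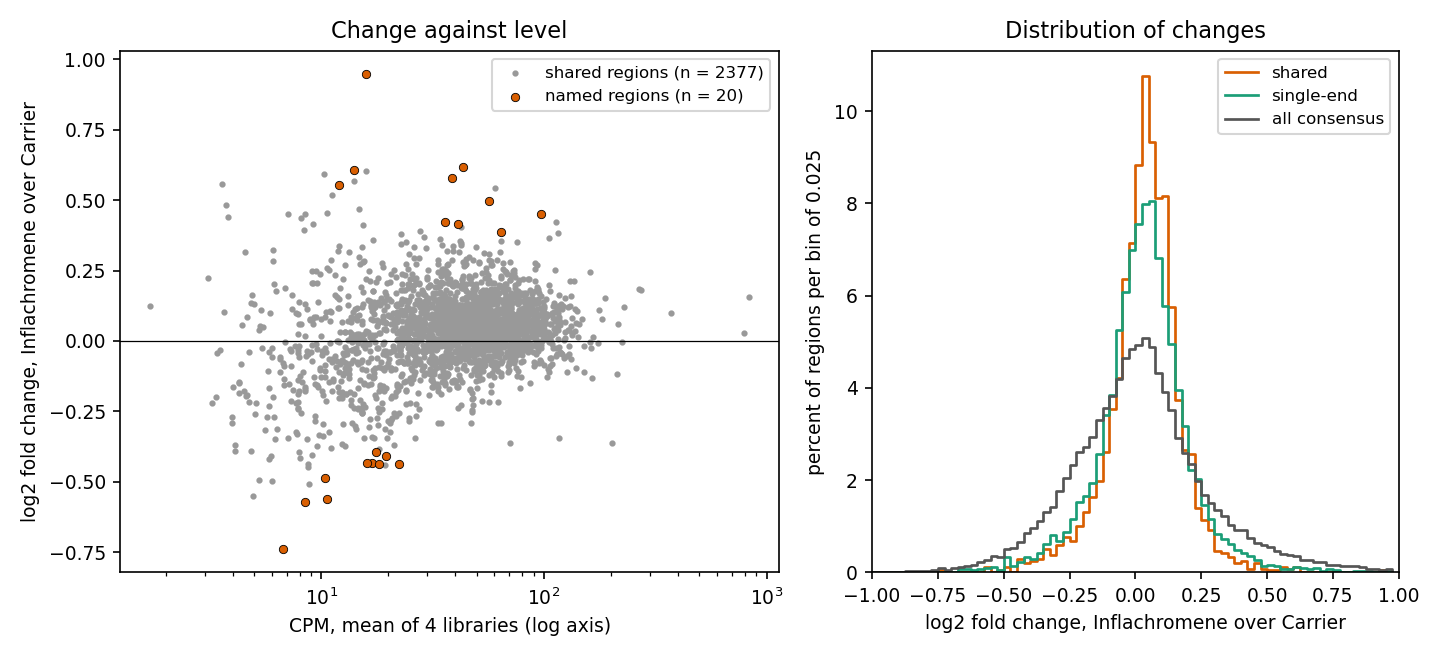
Left, log2 fold change of Inflachromene over Carrier against mean CPM (log axis) for 2377 shared regions, with the 20 regions named for non-overlapping groups in orange. Right, the distribution of log2 fold changes in shared, single-end and all consensus regions, with medians of 0.04, 0.03 and 0.01.

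Groups that did not overlap, with both Inflachromene libraries above or below both Carrier libraries, were counted next. Both Inflachromene libraries were higher in 321 shared regions (13.5%, background 14.0%) and lower in 177 (7.45%, background 17.4%). The low share of lower regions varied with the presence of a gene start. Start-to-start regions were lower in 3.07% and single starts in 6.85%, whereas end-to-end regions were lower in 30.8% and single 3′ ends in 26.3%. The median log2 fold change was 0.05 in start-to-start regions, 0.04 at single starts, -0.11 in end-to-end regions and -0.07 at single 3′ ends. The direction at start-to-start regions depended on the library: their median was -0.04 without Inflachromene 11 and -0.02 without Carrier 12, but 0.13 without Inflachromene 35 and 0.13 without Carrier 31. In end-to-end regions it ran from -0.17 to -0.07 when single libraries were left out.

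The contrast of starts and ends can be read within each library. Start-to-start regions had 4.34-fold the median density of end-to-end regions in Inflachromene 11 and 4.03-fold in Inflachromene 35, against 3.78-fold in Carrier 12 and 3.81-fold in Carrier 31. Both Inflachromene libraries were higher, with an exact permutation p of 0.33, the smallest possible. For single starts over single 3′ ends the ratios were 3.32 and 2.98 in Inflachromene libraries and 2.74 and 3.14 in Carrier libraries, which overlapped (exact permutation p = 0.667). The difference between these contrasts was not tested.

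The shared regions without overlap between the groups are exemplified next by the 10 of smallest p in each direction. None passed the adjusted threshold (adjusted p = 1.00 for each, edgeR), so these are values and not calls. Of the 10 higher ones 6 lie on chromosome 11, which holds 6.94% of all shared regions. An offset for each window of 10 Mb, taken from all consensus regions there, lowered the log2 fold change of each of these 6. On other chromosomes it also lowered those of CUL4A with PCID2, ASPRV1 with PCBP1 and TMEM43 with XPC, but not that of RILP with PRPF8. The median log2 fold change of all shared regions was 0.041 without the offset and 0.007 with it.

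TRIM6 and its readthrough TRIM6-TRIM34, whose genes encode ubiquitin ligases of antiviral defence, stood first. Their region (chromosome 11, 5595902 to 5596966) had 22.8 CPM in Inflachromene 11 and 19.3 in Inflachromene 35, against 9.90 in Carrier 12 and 11.9 in Carrier 31. The groups lay apart by more than the spread within either. edgeR put the log2 fold change at 0.95 with a standard error of 0.20 (95% interval from 0.49 to 1.40, unadjusted p = 0.000935), and at 0.74 with the window offset. DESeq2 gave an adjusted p of 0.0741, the smallest of any shared region. With barcodes listed in 1 library only, the log2 fold change was 1.08.

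CUL4A, the scaffold of a ubiquitin ligase of DNA replication and repair, and PCID2, a factor of mRNA export, start 476 bp apart on chromosome 13 (region 113208422 to 113209684). The region had 51.6 CPM in Inflachromene 11 and 41.2 in Inflachromene 35, against 29.7 in Carrier 12 and 32.4 in Carrier 31, a log2 fold change of 0.58 (standard error 0.17, unadjusted p = 0.00635). The Inflachromene pair differed by more than the gap between the groups. ASPRV1, a protease of the skin, and PCBP1, an RNA-binding protein, share the stretch printed above. There the values were 71.0 and 61.6 CPM in Inflachromene libraries and 46.5 and 47.5 in Carrier libraries, a log2 fold change of 0.50 (standard error 0.15, unadjusted p = 0.00789), and 0.31 with the window offset.

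FAM76B and CEP57, a centrosomal protein, gave the highest level of the 10. Their region had 120 CPM in Inflachromene 11 and 104 in Inflachromene 35, against 78.8 in Carrier 12 and 84.4 in Carrier 31 (log2 fold change 0.45, standard error 0.15, and 0.26 with the window offset). FADS1 and FADS2, desaturases of long-chain fatty acids, start 800 bp apart and had 43.3 and 38.8 CPM in Inflachromene libraries and 28.4 and 32.8 in Carrier libraries (log2 fold change 0.42, standard error 0.16). Neither pair's groups overlapped. The third start-to-start pair on this chromosome, GATD1 with LOC124900301, had a log2 fold change of 0.42, and 0.21 with the window offset.

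An end-to-end region joined TMEM43, a protein of the inner nuclear membrane, to XPC, which recognises damaged DNA. It had 42.0 CPM in Inflachromene 11 and 62.4 in Inflachromene 35, against 33.0 in Carrier 12 and 35.1 in Carrier 31, so that 1 library stood well above the rest. The log2 fold change was 0.62 (standard error 0.20), 0.29 without Inflachromene 35 and 0.32 with the window offset. At the other end of TMEM43, its start shared with CHCHD4, an import factor of mitochondria, Inflachromene 35 again stood apart, with 13.9 and 24.4 CPM in Inflachromene libraries and 13.2 and 12.1 in Carrier libraries. The remaining 3 higher regions were those of TBCEL with TBCEL-TECTA (log2 fold change 0.61), TMEM109 with TMEM132A (0.55, and 0.32 with barcodes listed in 1 library only), and RILP, a lysosomal partner of RAB7, with the spliceosome core protein PRPF8 (0.39, and 0.25 without Inflachromene 11). A second region of TBCEL and TBCEL-TECTA (121024894 to 121025714) went the other way, with a peak in both Carrier libraries and in neither Inflachromene library.

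Of the 10 lower regions none was start to start by strand, and for B3GALT4 with WDR46 the strand was not in the table. PCDHB16 and PCDHB9, protocadherins of the beta cluster, share a region with 5.12 CPM in Inflachromene 11 and 4.94 in Inflachromene 35, against 7.88 in Carrier 12 and 8.90 in Carrier 31 (log2 fold change -0.74, standard error 0.23, unadjusted p = 0.0105). At the ends of AP1G2, an adaptor of vesicle coats, and THTPA, a thiamine triphosphatase, the values were 8.55 and 8.53 CPM in Inflachromene libraries and 12.6 and 12.5 in Carrier libraries (log2 fold change -0.56, standard error 0.20). In both regions the libraries of a group lay close together. LOX, the enzyme that cross-links collagen, and SRFBP1, a partner of serum response factor, had 15.2 and 14.8 CPM per kb in Inflachromene libraries and 20.8 and 19.6 in Carrier libraries (log2 fold change -0.43, standard error 0.18).

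Among the other 7, WDR46 with B3GALT4 had 19.5 and 18.3 CPM in Inflachromene libraries and 25.7 and 25.5 in Carrier libraries, a log2 fold change of -0.44. KLK10 and KLK11, kallikrein proteases, had 7.70 and 5.97 CPM in Inflachromene libraries and 8.77 and 11.5 in Carrier libraries, a log2 fold change of -0.57. The rest lay between -0.39 and -0.49: GP6 with RDH13, KCTD11 with TMEM95, EDDM13 with LOC124900420, KIF24 with UBAP1, and NLRP1 with LOC124900388 and LOC728392. Leaving out single libraries moved some of these values. For NLRP1 the log2 fold change was -0.44, but -0.67 without Inflachromene 11 and -0.24 without Inflachromene 35. It was -0.26 without Carrier 12 for KIF24 with UBAP1 (-0.41 with all libraries), and -0.36 without Carrier 31 for KLK10 with KLK11. In every library the 10 lower regions had at most 25.7 CPM.

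**Figure D5:**
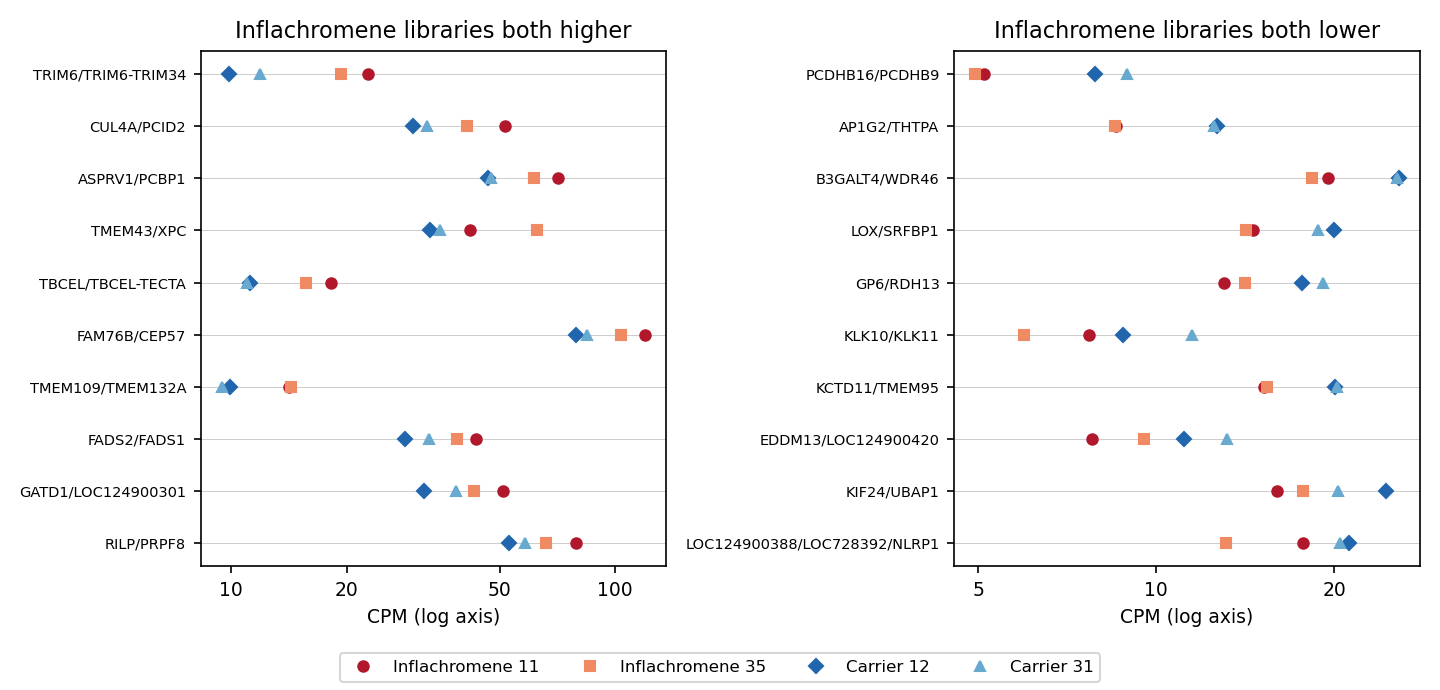
CPM (log axis) of the 20 named shared regions in each library, ordered from top to bottom by unadjusted p; left, both Inflachromene libraries higher, right, both lower. TRIM6 with TRIM6-TRIM34 and PCDHB16 with PCDHB9 head the panels, and no region passed an adjusted p of 0.05.

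Leaving out single libraries changed the count of calls. Without Inflachromene 11, 14 shared regions passed (10 higher, background 5.48%, and 4 lower), which is 0.589% of them against a background of 6.26%. Among these were TRIM6 (log2 fold change 0.82, adjusted p = 0.00459), TMEM43 with XPC (0.88, adjusted p = 0.000479) and CHCHD4 with TMEM43 (0.95, adjusted p = 0.000332). Without Inflachromene 35, TRIM6 (1.05, adjusted p = 0.000741) and CUL4A with PCID2 (0.72, adjusted p = 0.0354) passed, all by edgeR, against a background of 0.589%. None passed without Carrier 12, where no region was called (0%), or without Carrier 31, where 0.00985% of all regions were, each of them higher. In these fits the lone sample is assumed to vary like the other group.

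Few shared positions had peaks in 1 group only, and most had a peak in all 4 libraries. Of 2855 merged regions at 2 or more gene ends, 2377 (83.3%) had a peak in all 4 libraries, compared with 68.1% at 1 gene end and 34.4% at none. Peaks of both Inflachromene libraries without any of Carrier were seen in 21 of them (0.736%), compared with 1.98% at 1 gene end and 3.95% at none. Those of both Carrier libraries without any of Inflachromene were seen in 22 (0.771%), compared with 1.02% at 1 gene end and 1.70% at none. A region with a peak in all 4 libraries cannot count here, so the low shares at shared positions are partly built in. Regions with a peak in exactly 2 libraries numbered 129 at 2 or more gene ends, 1313 at 1 and 17087 at none. Peaks of Inflachromene only were 311 at 1 gene end and 4334 at none, and of Carrier only 161 and 1863. Among the 21 were a second peak beside KRT8 and KRT18 and one between COL4A5 and COL4A6, collagen genes of basement membranes. Among the 22 were one of IGF2 with INS-IGF2 and one of LIG1, a DNA ligase, with ZSWIM9. Another of the 22 lay at TBCEL and TBCEL-TECTA, whose other region was higher in both Inflachromene libraries. Where a library has no peak its count is unknown, so these were not tested, and the examples were chosen after their values were seen. Peaks were called per library, and Inflachromene 35 had 96240, against 78398 in Inflachromene 11, 78639 in Carrier 12 and 75717 in Carrier 31. The part of these numbers in the shares of either group was not tested.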

How the data were processed

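Single-cell ATAC libraries of Panc1 cells from 4 mice, 2 per group by the treatment label, were analysed. The authors deposited peak lists, called per library, and raw matrices of counts, which were not normalized. The submitters' processing notes name the build GRCh38, Cell Ranger ARC and Cell Ranger ATAC 2.1.0, without their roles, and nothing used here states how mouse DNA was handled. Even numbers made up 82.4% to 84.9% of the entries above 0, so a molecule often counts at both its ends.

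The members and lists were chosen with earlier results of these data known. Gene ends come from RefSeq's gene table (GRCh38.p14, 19974 protein-coding genes) and the strand from its promoter table (15813 genes). Counts were summed over all barcodes of a library, since the mouse is the replicate and neither barcodes nor regions are. edgeR 4.0.16 (R 4.3.3; TMM, filterByExpr, quasi-likelihood F test) was fitted on all consensus regions with Benjamini-Hochberg adjustment at 0.05, with DESeq2 1.42.0 as the other tool, and the code was tested on simulated data. Two-sided exact permutation tests were run for ratios and shares (scipy 1.17.1, Python 3.11.15). No doublet caller was run.

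Regions named by rule were the known pairs at a shared region, the 10 smallest p in each direction among non-overlapping groups, the 5 highest and the 5 lowest densities, the 5 with the most genes, up to 3 of each gene class and the 3 widest; of these, examples are printed, and some are not reported here. The regions of the chromosome 19 stretch, the start-to-start regions highest outside it, CHCHD4 with TMEM43 and peaks of 1 group only were added after their values were seen. The comparisons of arrangements, and the alternatives without the stretch, without readthrough genes and with barcodes listed in 1 library only, were also added after the data were seen.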

Additional observations from a re-analysis of the deposited data

How the results depend on the processing

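The number of shared regions was 1873 with windows of 500 bp, 3210 with 2 kb, 1908 with windows outside the gene body only, 2323 without readthrough genes and 2500 with a peak in at least 3 libraries. No shared region was called by edgeR with DESeq2 size factors, without a filter, with deep barcodes, with numbers of barcodes, with barcodes listed in 1 library only, with an offset per 10 Mb window, or by DESeq2; leaving out single libraries gave 0 to 14 calls, namely 14 without Inflachromene 11 and 2 without Inflachromene 35. The share of counts in shared regions, Inflachromene minus Carrier, was 0.111 percentage points; it reversed to -0.180 with all peaks as the denominator and ran from -0.426 to 0.648 when single libraries were left out, at -0.426 without Inflachromene 11 and -0.302 without Carrier 12, and the cause was not tested. The median log2 fold change ran from -0.05 to 0.12 in the same way. The log2 ratio of shared over single-end regions was 0.50 to 0.55 over all alternatives, and the difference in deep barcodes 6.80 to 8.39 percentage points. Among alternative values of the 20 named regions, 215 kept their direction and side of the threshold, none reversed, and 5 newly passed it: TRIM6 without either Inflachromene library, CUL4A without Inflachromene 35, and TMEM43 with XPC and the NLRP1 region without Inflachromene 11. No paired analysis was possible because the groups share no mouse numbers. With 2 mice per group, exact tests between groups cannot give a p under 0.33.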
